A study of Mus musculus with 17 samples.

Results

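The 10 genes Sox9, Sox5, Sox6, Runx2, Sp7, Acan, Comp, Bglap, Ibsp and Alpl were read across all group codes of the series, to ask whether implants grown from embryonic fibroblasts hold transcripts of the cartilage and bone lineages. They were taken by symbol from a table of 54658 genes, and all 10 were found. The libraries came from fat-like implants of mouse embryonic fibroblasts (MEF) and from fat that had grown in place. Hosts of a type called LD, described as male and not spelled out further in the design text, received MEF from leptin knockout (KO) or wildtype (WT) pups under the skin over the sternum at 3 to 5 weeks of age. Surgical animals had the medial meniscus of the left knee destabilized at 16 weeks, and the study ended at 28 weeks. The KO implants carry the codes MKM (described as male, surgery) and MKF (female, surgery), and the WT implants carry MWM (male, surgery) and MWF (female, surgery). The endogenous fat carries ESM (subcutaneous, male, surgery), EVM (visceral, surgery), EVFY (visceral by its genotype label, code not spelled out) and EVFN (visceral, nonsurgical). The sex codes of the implants stand beside a text that calls the hosts male. Which mice gave the endogenous fat, and whether libraries of a code came from separate animals, is not given in the sources used here.

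Cartilage and bone arise from shared mesenchymal progenitors. SOX9 opens the chondrocyte programme, and SOX5 and SOX6 act with it to switch on cartilage matrix genes such as Acan. RUNX2 and, downstream of it, SP7 (osterix) drive osteoblasts, which secrete bone sialoprotein (Ibsp) and osteocalcin (Bglap) and carry tissue-nonspecific alkaline phosphatase (Alpl) on their surface. Several of these genes are also used outside the skeleton: SOX9 in ducts and other epithelia, SOX6 in muscle and blood cells, alkaline phosphatase in liver, kidney and vessels, and cartilage oligomeric matrix protein (Comp) in tendon and ligament.

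Each of 16 libraries held 16444965 to 25805502 reads, and values are CPM (reads of a gene per 1000000 reads of its library), where 1 read was worth 0.0388 to 0.0608 CPM and 3 reads 0.116 to 0.182 CPM. Libraries are named by code and replicate number. The libraries titled MKM1 and EVFN1 went against their labels: the mesothelial gene Upk3b was at 200.4 CPM in MKM1 against 0 in MKM2, and at 0.058 CPM in EVFN1 against 148 in EVFN2. They are shown singly and were left out of group means and of the tests, which leaves 14 libraries, and the tests with all 16 as labelled are given beside the results. Sex-linked transcripts did not follow the codes in every library either. MWM1 and MWM2 held Xist at 494 and 466.1 CPM together with the Y-linked Ddx3y at 13.1 and 17.3 CPM. Reads of Lep, the leptin gene, did not set KO apart from WT implants. Lep was at 1336 CPM (MKM2), 1644 (MKF1) and 1726 (MKF2) in the KO implants, and at 1888 (MWM1), 2675 (MWM2), 806 (MWF1) and 1019 CPM (MWF2) in the WT implants. The tissue is labelled as ganglia. The 6 adipocyte markers summed to 6984 to 14573 CPM in the 7 implants and to 12579 to 22156 CPM in the 7 libraries of endogenous fat, and the 8 sensory neuron markers to 7.98 to 34.5 CPM in implants and 5.38 to 14.7 CPM in fat.

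The genes fell into a readable and an almost silent group. Sox9, Sox5, Sox6, Runx2, Comp and Alpl reached 1 CPM in all 16 libraries. Sp7, Acan, Bglap and Ibsp did not pass the filter of 1 CPM in at least 2 libraries, so 6 of the 10 genes entered the tests. Over all 16 libraries together Ibsp had 12 reads, Bglap 15, Sp7 71 and Acan 83. Per kilobase of exon, the mean levels in KO implants were 32.4 CPM per kb for Comp, 2.74 for Alpl, 1.198 for Runx2, 0.823 for Sox6, 0.781 for Sox9 and 0.609 for Sox5. In WT implants they were 13.4 CPM per kb for Comp, 3.27 for Alpl, 3.12 for Sox9, 2.85 for Sox6, 0.840 for Runx2 and 0.677 for Sox5. In endogenous fat the order by the same measure was Sox6 at 3.18, Alpl at 3.10, Sox9 at 2.18, Comp at 1.62, Sox5 at 0.844 and Runx2 at 0.464. The mean of Sox9 in fat rests on EVM1 and was 1.04 CPM per kb without it, below that of Comp. The means of Sox9 and Sox6 in either group of implants, and of Sox6 and Alpl in fat, lay closer together than the spread between libraries. The 4 other genes were each at or below 0.0997 CPM per kb on either side.

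**Figure D1:**
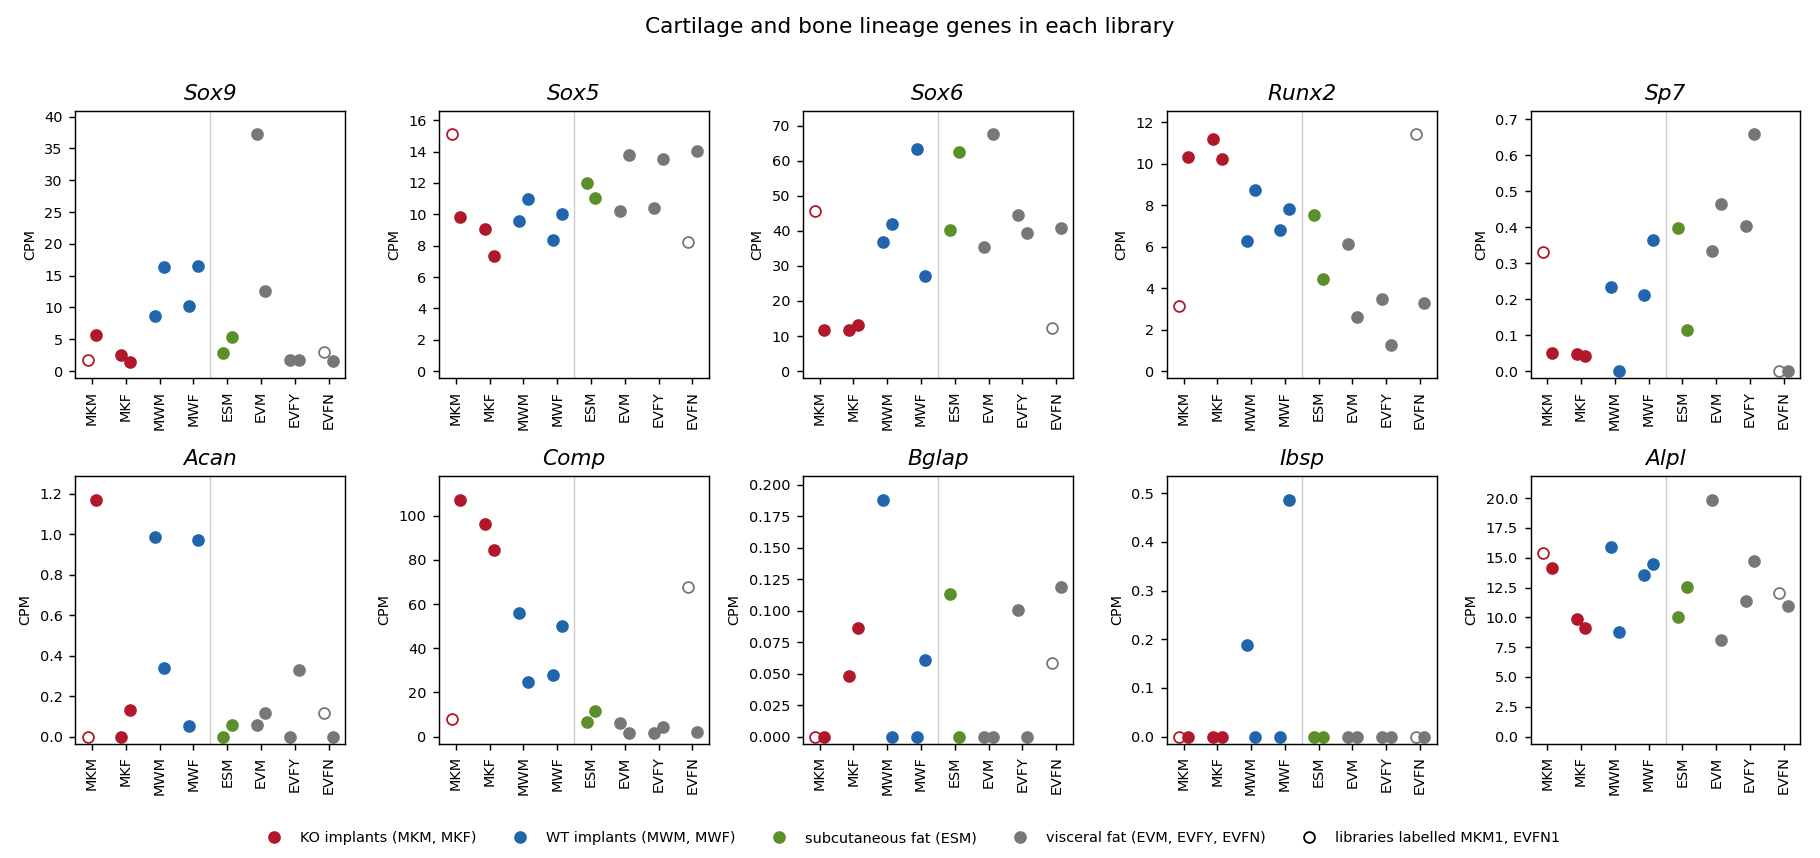
Level in CPM of each of the 10 genes (1 panel a gene, linear axes that differ between panels) in every library, by group code along the horizontal axis. Points are single libraries, open points are the libraries labelled MKM1 and EVFN1, and the grey line divides implants (left) from endogenous fat (right). Comp is higher in all 7 implants than in all 7 fat libraries, Sox6 is near 12.2 CPM in the 3 KO implants, and Ibsp has reads in MWM1 and MWF2 only.

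Between implants and endogenous fat, Comp and Runx2 were higher in the implants and Sox6 and Sox5 were lower, while Sox9 and Alpl did not pass the test. These are 4 of the 6 tested genes (adjusted p under 0.05 by limma on log2 of CPM + 0.5, 2 higher and 2 lower). Of all 17964 genes tested 32.8% passed, 22.9% as higher and 9.81% as lower. The median log2 fold change was 0.32 over the 6 genes and 0.11 over all genes tested. With all 16 libraries as labelled none of the 6 passed, and 2.63% of all genes did. At an unadjusted p under 0.05, 2 of the 6 passed with all 16 libraries, beside 4753 of all 17964 genes. Because whole tissue was measured, fewer cells of a type and less RNA per cell cannot be told apart in any of these differences.

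Sox9 (chromosome 11, 112782224 to 112787760, plus strand, mm10), the transcription factor that starts the chondrocyte programme, was at 5.75 CPM (MKM2), 2.56 (MKF1) and 1.37 (MKF2) among the KO implants. The WT implants held 8.60 CPM (MWM1), 16.3 (MWM2), 10.2 (MWF1) and 16.5 (MWF2). In fat it was at 2.89 CPM (ESM1), 5.41 (ESM2), 37.2 (EVM1), 12.6 (EVM2), 1.81 (EVFY1), 1.70 (EVFY2) and 1.54 (EVFN2). The highest level of Sox9 was thus in a visceral fat library, and the implants and the fat overlapped. Implants averaged 8.76 ± 6.07 CPM and endogenous fat 9.02 ± 13.04 CPM (SD, n = 7 each), and the log2 fold change was 0.61 (SE 0.30, adjusted p = 0.154, 95% interval from -0.08 to 1.30). Without EVM1 this difference passed at a log2 fold change of 0.80 (adjusted p = 0.0389), and over the other 13 single libraries left out it did not. The libraries labelled MKM1 and EVFN1 had 1.82 and 2.96 CPM.

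Sox9 was lower in KO than in WT implants. The 3 KO implants averaged 3.23 ± 2.27 CPM and the 4 WT implants 12.9 ± 4.09 CPM (SD), and all KO implants were below all WT implants (log2 fold change -1.74, SE 0.43, adjusted p = 0.0359). With all 16 libraries as labelled the log2 fold change was -2.10 (SE 0.44, adjusted p = 0.0444). The call did not hold without EVFY1, EVFY2, MKF2, MWF1, MWF2, MWM1 or MWM2, where adjusted p was 0.0527 to 0.116. The sums of epithelial markers overlapped between KO and WT implants for 1 list and not for the other. The 7 keratinocyte and glandular markers, all detected on either side, summed to 2.28 to 155 CPM in KO implants against 134 to 256 CPM in WT implants, and the 6 lung and airway markers, also all detected, to 9.66 to 30.4 CPM in KO implants against 139 to 531 CPM in WT implants. In EVM1, the fat library with the most Sox9, the epithelial sum was 219 CPM and Foxj1, a regulator of motile cilia, was at 84.3 CPM against at most 0.297 CPM in the 6 other fat libraries of the fit. EVM2, second among the fat libraries in Sox9, had an epithelial sum of 32.5 CPM. The part of epithelial cells in the difference in Sox9 was not tested.

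**Figure D2:**
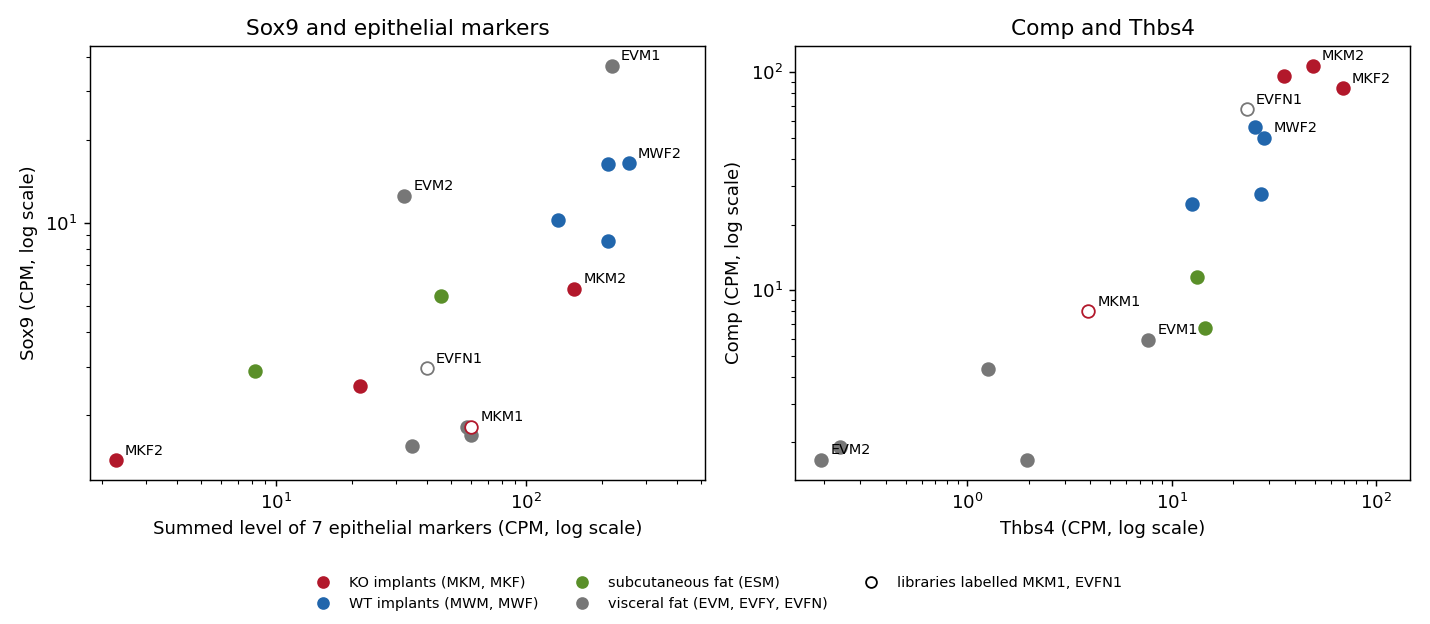
Left, level of Sox9 against the summed level of 7 epithelial markers (Krt5, Krt14, Krt8, Krt18, Krt19, Epcam, Cdh1); right, level of Comp against Thbs4. All axes are CPM on log scales, each point is 1 library, colours give the kind of tissue and open points the libraries labelled MKM1 and EVFN1. EVM1 is highest in Sox9 at 37.2 CPM with an epithelial sum of 219 CPM, and the 3 KO implants are the highest in both Comp and Thbs4.

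Sox6 (chromosome 7, 115470872 to 116038796, minus strand), a partner of SOX9 without a transactivation domain of its own, was lower in KO than in WT implants. It was at 11.9 CPM (MKM2), 11.7 (MKF1) and 13.05 (MKF2) in the KO implants, against 36.7 (MWM1), 42.1 (MWM2), 63.3 (MWF1) and 27.0 CPM (MWF2) in the WT implants. In fat it was at 40.3 CPM (ESM1), 62.5 (ESM2), 35.5 (EVM1), 67.5 (EVM2), 44.5 (EVFY1), 39.4 (EVFY2) and 40.8 (EVFN2). The 3 KO implants stood below every other library of the fit, and the WT implants lay across the range of fat. The log2 fold change of Sox6 in KO over WT implants was -1.70 (SE 0.33, adjusted p = 0.0136), from means of 12.2 ± 0.739 CPM (n = 3) and 42.3 ± 15.4 CPM (SD, n = 4). Without MWM2 it was -1.65 (adjusted p = 0.0530), and with all 16 libraries as labelled -1.22 (SE 0.48, adjusted p = 0.169). The library labelled MKM1 had 45.6 CPM and the library labelled EVFN1 12.4 CPM.

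Implants as a whole averaged 29.4 ± 19.4 CPM of Sox6 and endogenous fat 47.2 ± 12.5 CPM (SD, n = 7 each). The log2 fold change was -1.01 (SE 0.23, adjusted p = 0.0106), which weights KO and WT groups equally, and -0.57 (adjusted p = 0.299) with all 16 libraries as labelled. The sum of adipocyte markers was also lower over implants than over fat. It was 10410 to 12726 CPM in KO implants and 6984 to 14573 CPM in WT implants, and the KO sums lay within the WT range. Adipoq, 1 of these markers, was at 719 to 810 CPM in KO implants, below the 876 to 2175 CPM of WT implants. In fat Adipoq was at 1503 to 3156 CPM. The other adipocyte markers are given only as part of the sum. The 8 markers of skeletal muscle, where SOX6 is also used, summed to 56.3 to 2349 CPM in KO implants and 2941 to 39957 CPM in WT implants. In fat they summed to 25.8 to 16628 CPM. The part of adipocyte or muscle content in the differences in Sox6 was not tested.

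Sox5 (chromosome 6, 143828425 to 144781977, minus strand), the close relative of Sox6, differed little. The 3 KO implants held 7.34 to 9.83 CPM with a median of 9.08, the 4 WT implants 8.34 to 10.96 CPM with a median of 9.81, and the 7 fat libraries 10.2 to 14.02 CPM with a median of 11.97. Most implants were thus slightly below most fat libraries, with some overlap. Its log2 fold change in implants over fat was -0.38 (SE 0.12, adjusted p = 0.0401). Leaving out 1 library at a time the call held in 4 of 14 fits, and adjusted p was 0.0506 to 0.0887 without ESM1, ESM2, EVFN2, EVFY2, EVM2, MKF1, MKF2, MWF1, MWM1 or MWM2. Without the filter on low genes adjusted p was 0.0711, and with all 16 libraries as labelled the log2 fold change was -0.21 (adjusted p = 0.354). KO and WT implants overlapped in Sox5 (log2 fold change -0.11, SE 0.17, adjusted p = 0.723, interval from -0.49 to 0.28). The libraries labelled MKM1 and EVFN1 had 15.1 and 8.24 CPM. The antisense gene Sox5os1, which overlaps exons of Sox5, was at most at 0.0429 CPM.

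Acan (chromosome 7, 79053483 to 79115099, plus strand) encodes aggrecan, the proteoglycan that gives cartilage its resistance to compression, and is a direct target of the 3 SOX factors. It had 23 reads in MKM2 (1.17 CPM), 0 in MKF1 and 3 in MKF2 (0.129 CPM). In the WT implants it had 21 reads in MWM1 (0.987 CPM), 6 in MWM2 (0.339 CPM), 1 in MWF1 (0.0531 CPM) and 16 in MWF2 (0.973 CPM). In endogenous fat it had at most 6 reads, in EVFY2 (0.329 CPM), and none in ESM1, EVFY1 or EVFN2. Reads of Acan were thus few everywhere, with the highest counts in 3 of the 7 implants and 2 of the other implants at 1 read or less. When low genes were kept in the fit, its log2 fold change in implants over fat was 0.81 (SE 0.25, adjusted p = 0.0538). Collagen II (Col2a1), the defining collagen of cartilage, was at most at 1.74 CPM, in MWM1, with a log2 fold change of 0.38 (adjusted p = 0.388). Further cartilage genes, singled out after their values were seen, were at most at 0.306 CPM (Col9a1), 0.159 CPM (Matn1), 0.912 CPM (Hapln1) and 0.106 CPM (Snorc) in any library, and Col10a1, the collagen of hypertrophic chondrocytes, at 1.08 CPM. Others reached more, each in MWF2: Col11a2 11.3 CPM, Chad 8.63 CPM and Epyc 5.84 CPM, all of which passed as higher in implants than in fat. Cytl1 reached 25.1 CPM, in EVFY2, and passed as lower in implants.

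Comp (chromosome 8, 70373558 to 70382066, plus strand), a secreted glycoprotein that binds collagen fibrils in cartilage, tendon and ligament, was the one gene of the 10 whose implants and fat did not overlap. It was at 107 CPM (MKM2), 96.1 (MKF1) and 84.6 (MKF2) in the KO implants and at 56.1 (MWM1), 24.7 (MWM2), 27.7 (MWF1) and 49.98 CPM (MWF2) in the WT implants. In fat it was at 6.69 CPM (ESM1), 11.4 (ESM2), 5.92 (EVM1), 1.67 (EVM2), 1.66 (EVFY1), 4.33 (EVFY2) and 1.90 (EVFN2). The libraries stood in the order KO implants, WT implants, subcutaneous fat and visceral fat, with no overlap between neighbours in that order. The share of all genes without such overlap was not counted, here or in the other comparisons. The log2 fold change in implants over fat was 3.92 (SE 0.34, adjusted p = 0.000178), a 15.1-fold difference on the scale of CPM + 0.5, and it was 3.64 to 4.11 leaving out 1 library at a time. The library labelled EVFN1 had 67.9 CPM and the library labelled MKM1 7.99 CPM, and with both as labelled the log2 fold change was 2.85 (SE 0.73, adjusted p = 0.0646).

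Within the implants, Comp averaged 96.0 ± 11.3 CPM in the 3 KO implants and 39.6 ± 15.7 CPM in the 4 WT implants (SD). The log2 fold change of 1.39 (SE 0.49, interval from 0.28 to 2.49) did not pass after adjustment (adjusted p = 0.103), although all KO implants were above all WT implants. DESeq2 on the recovered reads gave 1.33 (adjusted p = 0.0322). The sum of 5 fibroblast markers, which do not include Comp, was 9028 to 11560 CPM in the KO implants against 3546 to 5749 CPM in the WT implants, and the sum of 5 macrophage markers 2396 to 3174 CPM in the KO implants against 629 to 763 CPM in the WT implants. The part of these cells in the level of Comp was not tested.

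Runx2 (chromosome 17, 44495987 to 44814797, minus strand), the transcription factor that commits progenitors to the osteoblast lineage, was at 10.3 CPM (MKM2), 11.2 (MKF1) and 10.2 (MKF2) in the KO implants. It was at 6.30 CPM (MWM1), 8.75 (MWM2), 6.80 (MWF1) and 7.84 (MWF2) in the WT implants. In fat it was at 7.54 CPM (ESM1), 4.44 (ESM2), 6.14 (EVM1), 2.60 (EVM2), 3.47 (EVFY1), 1.26 (EVFY2) and 3.27 (EVFN2). All implants were above all visceral libraries, and ESM1 lay within the WT range. Implants averaged 8.78 ± 1.89 CPM and endogenous fat 4.10 ± 2.14 CPM (SD, n = 7 each), and the log2 fold change of 1.18 (adjusted p = 0.00944, SE 0.26) passed in all 14 fits leaving out 1 library. With all 16 libraries as labelled it was 0.78 (SE 0.33, adjusted p = 0.174), the library labelled MKM1 holding 3.14 CPM and the library labelled EVFN1 11.4 CPM. The KO implants were all above the WT implants in Runx2, with a log2 fold change of 0.49 that did not pass (SE 0.37, adjusted p = 0.429, interval from -0.35 to 1.32). The antisense gene Runx2os1 overlaps exons of Runx2 and was at 0 to 0.987 CPM, and the strand setting of the counting is not given.

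Osteocalcin is a textbook target of RUNX2, which binds the core ACCACA, so the promoters of both genes are shown, 250 bases before to 50 after the annotated start (RefSeq, GRCm38.p6). Matches to ACCACA on either strand (TGTGGT on the other) are in capitals, in the direction of transcription.
Runx2 promoter, chr17:44814578-44814877, minus strand: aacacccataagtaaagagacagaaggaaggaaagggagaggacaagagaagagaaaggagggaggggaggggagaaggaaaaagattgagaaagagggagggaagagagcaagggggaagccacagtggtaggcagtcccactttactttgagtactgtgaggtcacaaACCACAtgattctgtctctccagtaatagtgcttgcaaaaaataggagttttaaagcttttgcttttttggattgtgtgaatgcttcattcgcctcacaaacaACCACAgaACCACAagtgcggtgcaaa
Bglap promoter, chr3:88384417-88384716, minus strand: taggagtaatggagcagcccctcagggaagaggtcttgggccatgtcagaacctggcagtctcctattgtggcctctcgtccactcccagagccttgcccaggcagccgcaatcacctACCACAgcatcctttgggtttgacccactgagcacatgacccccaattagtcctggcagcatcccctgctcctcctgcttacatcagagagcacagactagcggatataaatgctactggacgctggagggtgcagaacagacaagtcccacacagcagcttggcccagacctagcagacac
The Runx2 window held 3 matches, 80 bases before the start and 24 and 32 bases after it, and the Bglap window 1 match, 132 bases before the start. Sox6 had 6 windows, of which 2 held 1 match each, at positions -63 and -93 from the start. The windows of Ibsp, Acan, Alpl and Sox5 held no match. A window was given for 7 of the 10 genes. Of all 32851 such windows, 16.8% held at least 1 match. A match is a description of the letters only.

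Sp7 (chromosome 15, 102356606 to 102367182, minus strand), the osteoblast factor that acts after RUNX2, had 1 read in each of the 3 KO implants (0.0429 to 0.0509 CPM). It was at 0.235 CPM (MWM1), 0 (MWM2), 0.213 (MWF1) and 0.365 (MWF2) in the WT implants, and at 0 to 0.658 CPM in the 7 fat libraries, with a median of 0.397 CPM. No library reached 1 CPM, and the highest value was in visceral fat (EVFY2). The log2 fold change in implants over fat was -0.31 (adjusted p = 0.197) with low genes kept in the fit. Sp7 thus did not share the direction of Runx2 in these values, at a depth that leaves its levels within a few reads.

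Ibsp (chromosome 5, 104299171 to 104311469, plus strand), bone sialoprotein of mineralizing matrix, had 8 reads in MWF2 (0.486 CPM) and 4 in MWM1 (0.188 CPM) and none in the other 14 libraries. Pooled over libraries the implants held 12 reads and the fat 0. The level in implants, with its reads taken as counted, was 3.88-fold a floor of 3 reads over the 7 fat libraries (0.0224 CPM). Without MWF2, which held 8 of the 12 reads, this ratio was 1.47, from 4 reads. All 12 reads came from WT implants, and 0 reads in the 3 KO implants allow up to 0.0471 CPM. With low genes kept in the fit, Ibsp did not pass (log2 fold change 0.18, adjusted p = 0.482). The ratios leave out the counting error of the implant reads, so they are not lower bounds. The floors take account of counting error alone, as the libraries had no molecular identifiers.

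Bglap (chromosome 3, 88383501 to 88384464, minus strand), osteocalcin of mature osteoblasts, had 8 reads over the 7 implants and 6 over the 7 fat libraries, and at most 4 reads in 1 library (0.188 CPM, MWM1). Its reads are uncertain, because the longest transcript of the neighbouring copy Bglap2 (471 bases) is 92.6% identical to that of Bglap (440 bases). Bglap2 itself was at most at 0.113 CPM and Bglap3 at 0.791 CPM. Genes of late osteoblasts and osteocytes, singled out after their values were seen, were at most at 0.141 CPM (Mepe), 0.365 CPM (Sost), 0.193 CPM (Fgf23) and 1.40 CPM (Dmp1) in any library. Of these Dmp1, a matrix protein of osteocytes, passed as higher in implants (log2 fold change 0.99, adjusted p = 0.0184), as did Phex, an osteocyte peptidase, which was at most at 1.52 CPM.

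Alpl (chromosome 4, 137741733 to 137796384, minus strand), the phosphatase that clears pyrophosphate ahead of mineral, was readable everywhere and did not pass in any comparison. It was at 14.1 CPM (MKM2), 9.86 (MKF1) and 9.14 (MKF2) in the KO implants and at 15.9 (MWM1), 8.81 (MWM2), 13.5 (MWF1) and 14.5 CPM (MWF2) in the WT implants. In the 7 fat libraries it was at 8.06 to 19.9 CPM with a median of 11.4. The log2 fold change in implants over fat was 0.03 (SE 0.22, adjusted p = 0.921, interval from -0.47 to 0.54) and in KO over WT implants -0.15 (SE 0.31, adjusted p = 0.795, interval from -0.86 to 0.56). In no library did Sp7, Bglap or Ibsp reach 1 CPM, while Runx2 was at 1.26 CPM or more and Alpl at 8.06 CPM or more in each. The libraries labelled MKM1 and EVFN1 had 15.4 and 12.1 CPM of Alpl.

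**Figure D3:**
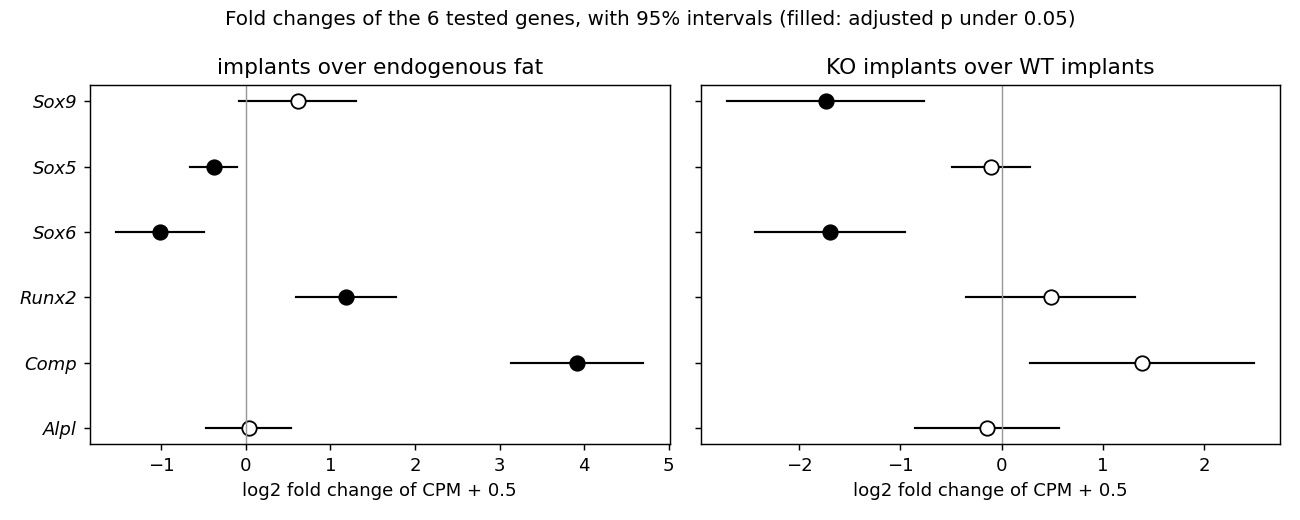
Log2 fold changes of the 6 tested genes with 95% intervals, in implants over endogenous fat (left) and in KO implants over WT implants (right), on the log2 scale of CPM + 0.5. Filled points have an adjusted p under 0.05 (limma over all genes tested). Comp is highest in implants at 3.92, and Sox9 and Sox6 are lowest in KO implants at -1.74 and -1.70.

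Between KO and WT implants 2 of the 6 tested genes passed, Sox9 and Sox6, both lower in KO implants. Of all genes tested 10.8% passed, 4.1% as lower. The median log2 fold change was -0.13 over the 6 genes and -0.06 over all genes. With all 16 libraries as labelled Sox9 passed and Sox6 did not, with 1.72% of all genes passing. The test of whether the difference between KO and WT implants itself differed between the codes described as male and female passed for none of the 6 genes, and for 0.562% of all genes. At an unadjusted p under 0.05 it also passed for none of the 6, and with edgeR and DESeq2 on the recovered reads none passed after adjustment. The largest estimate was that of Sox9, at 1.51 on the log2 scale (SE 0.86, adjusted p = 0.423). The male KO code is 1 library in that test, MKM2, so its spread is taken from the other groups.

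Set against each depot separately, with the same implants in both comparisons, Comp, Runx2, Sox6 and Sox5 kept the sign they had against all fat, although not all passed. Over visceral fat (7 against 5 libraries) 4 of the 6 genes passed, where 29.2% of all genes did. Comp had a log2 fold change of 4.32 (adjusted p = 0.000258, SE 0.38) and Runx2 one of 1.39 (adjusted p = 0.00819, SE 0.29), with no overlap between libraries for either. Sox6 had -0.96 (SE 0.25, adjusted p = 0.0220) and Sox5 -0.41 (SE 0.13, adjusted p = 0.0468). The call of Sox6 was lost without EVFY1 (adjusted p = 0.0552) or MKM2 (adjusted p = 0.0813), and that of Sox5 held in 4 of 14 fits leaving out 1 library and was lost with low genes kept (adjusted p = 0.0833). Over subcutaneous fat (7 against 2 libraries) 2 of the 6 passed, where 16.5% of all genes did. Comp had one of 2.72 (adjusted p = 0.00817, SE 0.50), which was 2.35 (adjusted p = 0.0846) without ESM1. Sox6 had -1.16 (SE 0.33, adjusted p = 0.0456), lost in 9 of 14 fits leaving out 1 library and in 8 of 10 other settings. Runx2 had 0.56 (adjusted p = 0.348) and Sox5 -0.29 (adjusted p = 0.298), which did not pass. With all 16 libraries as labelled none of the 6 passed over visceral fat, where 1.17% of all genes did. None passed over subcutaneous fat either, where 0.69% did. At an unadjusted p under 0.05 the counts of the 6 genes were 2 and 0, beside 4072 and 3407 of all 17964 genes.

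Between the depots without an implant, none of the 6 genes passed in subcutaneous over visceral fat (2 against 5 libraries), where 1.2% of all genes did. Comp was 9.07 ± 3.36 CPM in subcutaneous and 3.09 ± 1.94 CPM in visceral fat (SD), with ESM1 and ESM2 above all visceral libraries and a log2 fold change of 1.59 (adjusted p = 0.306, SE 0.52). At an unadjusted p under 0.05 Comp alone of the 6 passed, beside 1806 of all 17964 genes. Comp also passed after adjustment with DESeq2 on the recovered reads, at 1.78 (adjusted p = 0.0222). Runx2 had a log2 fold change of 0.82 (adjusted p = 0.547) between the depots.

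Other genes of the same tissues were read from 5 lists, to place the 10 genes. In cartilage matrix 13 of 22 genes were tested, and in implants over fat 5 rose and 2 fell, with a median log2 fold change of 0.70. For all genes tested the shares were 22.9% higher and 9.81% lower and the median was 0.11. Col11a2, a fibril collagen chain of cartilage, was at 5.26 ± 3.78 CPM in implants and 1.48 ± 0.432 CPM in fat (SD, n = 7 each; log2 fold change 1.28, SE 0.16, adjusted p = 0.000590). Cilp, a matrix protein of cartilage that also occurs in other connective tissue, was at 179 ± 107 CPM in implants and 58.7 ± 64.4 CPM in fat (log2 fold change 2.19, SE 0.45, adjusted p = 0.00697), and its relative Cilp2 rose by 1.14 (SE 0.25, adjusted p = 0.00914). The other 2 that rose, named after their values were seen, were Epyc, a small proteoglycan of cartilage (log2 fold change 1.87, adjusted p = 0.00995), and Chad, a cartilage protein that binds collagen (1.599, adjusted p = 0.0375). The 2 that fell, also named after their values were seen, were Cnmd (log2 fold change -0.89, adjusted p = 0.0118) and Cytl1 (-0.90, adjusted p = 0.0387). Between KO and WT implants, where 10.8% of all genes tested passed, 1 gene of the list rose and none fell. It was Prg4, lubricin of joint surfaces and other sliding tissues, at 93.7 ± 39.8 CPM in KO implants (n = 3) and 33.5 ± 16.5 CPM in WT implants (SD, n = 4). Its log2 fold change was 1.54 (SE 0.42, adjusted p = 0.0492). Col11a2 had -0.69 (adjusted p = 0.0841) and Fmod, a collagen-binding proteoglycan, 1.06 (adjusted p = 0.123).

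Of 15 chondrocyte signals and regulators 14 were tested, and 3 rose and 1 fell in implants over fat (median 0.00), where 22.9% of all genes tested rose and 9.81% fell (median 0.11). Foxa2 is a regulator of late chondrocytes and of endodermal organs. It was at 3.01 ± 2.03 CPM in implants and 0.151 ± 0.137 CPM in fat (log2 fold change 2.13, SE 0.20, adjusted p = 0.000220). MKF1 and MKF2, at 0.435 and 0.0429 CPM, were near or within the range of fat (0 to 0.402 CPM). MKM2 was at 2.80 CPM and the WT implants were at 3.95 to 5.31 CPM. Barx1, a homeobox gene of joints and of the stomach, was at 1.08 ± 0.722 CPM in implants and 0.0225 ± 0.0404 CPM in fat (log2 fold change 1.55, adjusted p = 0.000251), and Wwp2, the ubiquitin ligase whose gene hosts a miRNA of cartilage, rose by 0.50 (adjusted p = 0.0111). Foxa2 was the 1 gene of the list that passed between KO and WT implants, where 10.8% of all genes tested did. It was at 1.09 ± 1.49 CPM in KO and 4.44 ± 0.595 CPM in WT implants (log2 fold change -1.68, SE 0.28, adjusted p = 0.00704). This was the same direction as Sox9 and as the sums of lung and epithelial markers, whose part in the level of Foxa2 was not tested. Arid5b had -0.65 (adjusted p = 0.0688) and Wwp2 0.50 (adjusted p = 0.0832).

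Of 15 osteoblast regulators and signals 13 were tested, and 2 rose and 3 fell in implants over fat (median -0.16), set against 22.9% and 9.81% of all genes tested. Bmp2, a ligand that induces bone, was at 8.97 ± 1.38 CPM in implants and 18.4 ± 6.02 CPM in fat (log2 fold change -0.94, SE 0.15, adjusted p = 0.00192). Cbfb, the DNA-binding partner of RUNX2, was at 61.1 ± 18.9 CPM in implants and 37.7 ± 5.38 CPM in fat (log2 fold change 0.66, SE 0.12, adjusted p = 0.00412), and Tnfsf11, the osteoclast-inducing ligand RANKL, rose by 0.69 (adjusted p = 0.00574), with 0.772 ± 1.01 CPM in implants and 0.121 ± 0.124 CPM in fat. Between KO and WT implants Tnfsf11 fell by 0.93 on the log2 scale (SE 0.19, adjusted p = 0.0189). It averaged 0.193 ± 0.0977 CPM in KO and 1.21 ± 1.201 CPM in WT implants. The libraries overlapped, at 0.129 to 0.305 CPM in KO and 0.141 to 2.49 CPM in WT implants. The lowest of these values lie near the level of 3 reads. Atf4 had 0.26 (adjusted p = 0.153).

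Of 20 genes of bone matrix and mineralization 13 were tested, and 7 rose and 1 fell in implants over fat (median 0.61). The background was again 22.9% higher and 9.81% lower. Spp1, osteopontin, which macrophages and epithelia make as well as osteoblasts, was at 107 ± 78.9 CPM in implants and 6.80 ± 7.20 CPM in fat (log2 fold change 4.81, SE 0.27, adjusted p = 3.6e-05). It was at 28.2 to 108 CPM in KO implants, 44.8 to 231 CPM in WT implants and 0.201 to 19.98 CPM in fat. The 5 macrophage markers came to a sum of 2396 to 3174 CPM in KO implants, 629 to 763 CPM in WT implants and 660 to 1230 CPM in fat. Their part in the level of Spp1 was not tested. Phex, a peptidase of osteocytes, was at 1.01 ± 0.400 CPM in implants and 0.0829 ± 0.0544 CPM in fat (log2 fold change 1.36, adjusted p = 0.000337), and Ank, a pyrophosphate exporter, rose by 0.60 (adjusted p = 0.00169). None passed between KO and WT implants, where 10.8% of all genes tested did. There Col1a2 had 0.95 (adjusted p = 0.0868), Col1a1 0.98 (adjusted p = 0.128) and Ank 0.32 (adjusted p = 0.145).

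The list of tendon and fibrocartilage, which includes Comp and shares Fmod and Cilp with the cartilage list, had all 9 genes tested, of which 4 rose and 1 fell in implants over fat (median 0.51), beside 22.9% and 9.81% of all genes. Thbs4, a thrombospondin of tendon and muscle related to Comp, was at 35.3 ± 18.4 CPM in implants and 5.62 ± 6.27 CPM in fat (log2 fold change 3.64, SE 0.52, adjusted p = 0.00123). Per library Thbs4 was at 35.3 to 68.7 CPM in the 3 KO implants, 12.6 to 28.5 CPM in the 4 WT implants, 13.4 and 14.6 CPM in ESM2 and ESM1 and 0.194 to 7.70 CPM in visceral fat. Tnmd, tenomodulin of tendon and of fat progenitors, was at 3.60 ± 1.80 CPM in implants and 0.224 ± 0.517 CPM in fat (log2 fold change 2.72, SE 0.33, adjusted p = 0.000565). Scx, the tendon transcription factor, had a log2 fold change of -0.02 (adjusted p = 0.974). No gene of the list passed between KO and WT implants, where 10.8% of all genes tested did. There Comp had 1.39, Fmod 1.06 and Cilp 1.13 (adjusted p = 0.287). The 8 markers of skeletal muscle, a tissue that also makes Thbs4, summed to 56.3 to 2349 CPM in the KO implants and 2941 to 39957 CPM in the WT implants. The same sum in fat was 25.8 to 16628 CPM. The part of muscle in the level of Thbs4 was not tested.

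**Figure D4:**
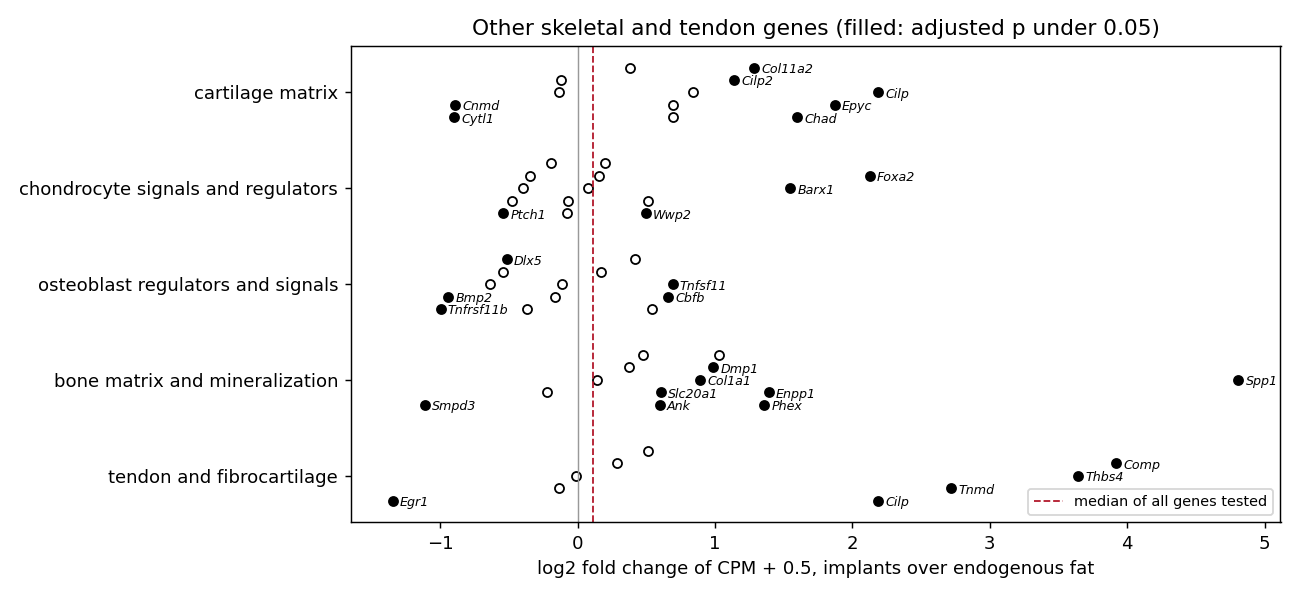
Log2 fold changes of CPM + 0.5 in implants over endogenous fat for the tested genes of 5 lists (rows). Filled, named points have an adjusted p under 0.05, open points do not, and the dashed line is the median of all genes tested, 0.11. Spp1 at 4.81, Comp at 3.92 and Thbs4 at 3.64 lie farthest to the right.

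Profiles across the 14 libraries were compared with those of 14407 other genes by Pearson r on log2 of CPM + 0.5. These are descriptions over libraries that fall into groups and share their depth and tissue. The most similar genes were Exosc4 (r = 0.97), Fbln7 (0.96) and Zic1 (0.96) for Comp, Zhx2 (0.95), Slc2a4 (0.94) and Amotl1 (0.94) for Sox6, and Angpt4 (0.94), Mmd2 (0.92) and Ggact (0.92) for Sox9. They were Clvs1 (0.91), Yipf4 (0.89) and Bche (0.89) for Sox5, Lamb3 (0.90), S100a8 (0.88) and Lhx8 (0.88) for Runx2, and Dnase1l2 (0.88), Sorcs2 (0.86) and Cdc14a (0.85) for Alpl. The 10 genes themselves were left out of the search. Among themselves, Comp and Runx2 had r = 0.80, Comp and Sox6 r = -0.71, Sox6 and Sox5 r = 0.52 and Sox9 and Sox6 r = 0.28.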

How the data were processed

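RNA was sequenced after RNase-H depletion of ribosomal RNA and random-hexamer priming, per the labels' protocols, although the labels name polyA RNA as the molecule. The submitters' processing notes name STAR 2.5.4, Subread 1.6.3 with featureCounts, cutadapt 2.7, FastQC 0.11.4 and build mm10. Annotation, strand setting and gene filter were not given in the sources used here. The authors deposited CPM values for 54658 genes; all nonzero values (100%, tolerance 0.001 reads) were whole multiples of 1 read, which returned the counts. A 17th sample, coded ESF, is not analysed here. Positions are from GENCODE M21 (99% of symbols matched).

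Groups came from the codes in the labels. Genes reaching 1 CPM in 2 or more libraries were fitted as log2(CPM + 0.5) with limma 3.58.1 (R 4.3.3; trend, robust) in 1 model of 8 group means over 14 libraries, with equally weighted groups and Benjamini-Hochberg adjustment over 17964 genes, called at 0.05. The fold changes understate changes of low genes. P-values and SEs measure only the spread between libraries of the same code (6 residual degrees of freedom), which may be technical. Differences between codes of the same side do not enter them, whereas the SDs printed beside the means include these differences. Chi-square per degree of freedom within codes was 24.7 to 240, above counting error, so no pair was 1 library sequenced again. The values of EVFN (240) and MKM (206) include EVFN1 and MKM1. Whether a pair came from 1 animal cannot be told from these values. Alternatives included edgeR 4.0.16 and DESeq2 1.42.0 on the recovered counts. The fit was tested on simulated data. Members and lists were chosen with earlier results of these data known. Genes named are the 10 genes, up to 3 per list with the smallest adjusted p in each main comparison, and the 3 most similar profiles. A gene that this rule would name is not reported here.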

Additional observations from a re-analysis of the deposited data

Results flagged for a closer look

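Of 38 pairs of a gene and a kind of tissue with 4 to 7 libraries, 4 held a library set apart from the others of its kind by a gap that chance gives in about 1 group in 20. Sox9 in endogenous fat was highest in EVM1, at 37.2 CPM against 1.54 to 12.6 CPM in the other 6 libraries. Among genes singled out after their values were seen, EVM1 held Ihh at 20.9 CPM, Bmpr1b at 11.4 CPM and Fmod at 154 CPM. It also held Foxj1 at 84.3 CPM and the epithelial marker Epcam at 43.5 CPM. Each of these was the highest of all 16 libraries. Acan had 1 read in EVM1 and Col2a1 was at 0.335 CPM. Which cells gave the Sox9 of EVM1 was not tested. Sox6 in visceral fat was highest in EVM2, at 67.5 CPM against 35.5 to 44.5 CPM in the other 4. Acan in endogenous fat was highest in EVFY2, at 0.329 CPM against 0 to 0.116 CPM, a difference of 3 reads. Ibsp in implants was highest in MWF2, at 0.486 CPM against 0 to 0.188 CPM in the other 6.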

How the results depend on the processing

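No value of the 6 tested genes that passed changed sign under any alternative. Of 852 comparisons of a single gene's value under an alternative with the value reported, 787 kept their side of the threshold, 62 lost it and 3 gained it. With all 16 libraries as labelled, 473 genes passed in implants over fat, 309 in KO over WT implants, 124 over subcutaneous fat, 211 over visceral fat, 58 in subcutaneous over visceral fat and 217 in the difference between sex codes, against 5884, 1935, 2961, 5237, 215 and 101. Of the 6 genes, 0, 1, 0 and 0 then passed in the first 4 comparisons. DESeq2 called 3083 genes in KO over WT implants, 715 in subcutaneous over visceral fat, with 1 of the 6, and 622 between sex codes. That last count was 0 with a pseudocount of 0.1 or edgeR, 286 with a pseudocount of 2, 282 with low genes kept, 59 with TMM scaling and 56 with median-of-ratios scaling. Over subcutaneous fat 1 of the 6 genes passed, Comp, with a pseudocount of 2, with low genes kept, with TMM or median-of-ratios scaling, with edgeR, with equally weighted libraries and with the replicate block. The causes were not tested.

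Scaling by median of ratios moved the split of calls in implants over fat to 3398 higher and 2601 lower, against 4122 and 1762, over visceral fat to 3077 and 2324, against 3593 and 1644, and over subcutaneous fat to 2081 and 1047, against 2320 and 641. It moved the median of all genes by over 0.1 over subcutaneous fat, to 0.03 against 0.14, and between sex codes, to 0.02 against 0.25.

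Leaving out 1 library at a time gave 4466 to 6086 genes and 3 to 5 of the 6 in implants over fat, 831 to 2357 and 0 to 2 in KO over WT implants, 969 to 3422 and 0 to 2 over subcutaneous fat, 3833 to 5427 and 3 to 4 over visceral fat, 55 to 432 and 0 in subcutaneous over visceral fat, and 0 to 363 and 0 between sex codes. The lowest counts came without MWM2 for KO over WT implants and without ESM1 over subcutaneous fat. Without MKM2 the difference between sex codes could not be fitted. A lone library of a group was assumed to vary like the other groups.

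Replicate numbers did not pair the libraries: over 15 pairs of codes, deviations correlated at -0.44 to 0.34. With the replicate block 1 of the 6 genes passed in KO over WT implants, Sox6, where Sox9 had an adjusted p of 0.0564, and Sox5 over visceral fat had one of 0.0540. Depth limits Sp7, Acan, Bglap and Ibsp, whose levels rest on at most 23 reads in a library.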
